A study of Mus musculus with 12 samples.

Results

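The genes described here are 10 S100 calcium-binding proteins, S100a3, S100a4, S100a6, S100a8, S100a9, S100a10, S100a11, S100a13, S100a14 and S100a16, followed in the dermis of newborn mice. Members were chosen by name and measured by probe sets annotated to a single one of these symbols, which gave values for 9 of the 10 members, among 18193 genes in all. The only probe set of S100a11 is also annotated to Gm12854 and the pseudogene S100a11-ps, so S100a11 has no value here. S100a10 had 3 probe sets, S100a16 had 2 and each of the other 7 members had 1. Those of S100a6, S100a8 and S100a16 all carry a suffix (_a_at, _s_at or _x_at) that was treated here as a mark of shared sequence.

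S100 proteins are small EF-hand proteins found in vertebrates. Most form dimers, open a binding groove when they take up calcium and then dock to target proteins such as annexins and cytoskeletal proteins. Several are also released from cells, where S100a8 and S100a9 form the dimer calprotectin and signal through receptors such as Tlr4 and Ager. In skin, S100a3 is known for the hair cuticle, where the human protein is a substrate of the peptidylarginine deiminase PADI3. S100a14 and S100a16 are expressed in epithelia, S100a8 and S100a9 in neutrophils, monocytes and stressed keratinocytes, and S100a4 (fibroblast-specific protein) in fibroblasts and leukocytes.

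The 12 arrays fall into 4 groups of 3, labelled P5 tail, P5 back, P1 tail and P1 back, from C57Bl6/CBA F1 mice 5 days or 1 day after birth, with no transgene or treatment named. The labels give the material as skin, and the methods give it as dermis freed from epidermis and digested to single cells. The stated protocol used EDTA for tail skin and a dispase-trypsin mix for back skin, so site and separation solution cannot be told apart. It names only P1, although the same text stands with the P5 samples. RNA came from triplicate mice at P1, and for P5 nothing in the labels or methods says whether the arrays are separate mice.

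The site labels went against their markers. Of 10 measured Hox genes of posterior identity, 7 were lower and none higher in the arrays labelled tail at each age. Their medians were -1.35 at P5 and -1.43 at P1, although such genes mark the tail. Over all genes, 6.91% were called between sites in either direction at P5 and 3.97% at P1. The fat cell genes, which the study places in the back, were higher in P1 arrays labelled tail for 8 of 8 measured genes (median 2.68). Every difference between sites below is therefore labelled tail minus labelled back, and this direction opposes the one that the study describes. Comparisons of ages within a site label do not depend on which site the label stands for. Marker genes of several cell types also differed between groups, and those set against a member are given with it. The array P5 tail replicate 2 stood apart, with an SD over probe sets of 0.495 against 0.227 to 0.338 in the other 11 arrays, and P1 tail replicate 4 had the lowest mean of the suprabasal keratinocyte list (-1.75).

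The S100 members lie together on chromosome 3, in the order S100a13, S100a14, S100a16, S100a3, S100a4, S100a6, S100a8 and S100a9. S100a11 and S100a10 follow after 56 other protein-coding genes, among them the cornified envelope genes Lor, Ivl and Flg. RefSeq promoter windows (GRCm38.p6, 250 bases before a start) were at hand for 8 members with 12 starts, and not for S100a10 and S100a14. The core TATA box motif TATAAA, searched on both strands, was in 1 window each of S100a3, S100a4 and S100a8, and in 12.4% of 32851 windows of all genes. TGANTCA, the motif bound by AP-1, was in windows of S100a11 and S100a16 (6.75% of all windows). TTGCNNAA, bound by C/EBP factors, was in the S100a9 window (9.56% of all windows). The windows of S100a3 and S100a4 that hold the TATA motif are shown, because these are the members with the largest difference between ages and with the site difference that passed the test. They were chosen after the values were seen. Capitals mark TATAAA, which begins 52 bases before the start in the S100a3 window (chr3:90588313-90588562, plus strand, 1 of 4 listed starts) and 31 bases before it in S100a4 (chr3:90603520-90603769, plus strand).
S100a3: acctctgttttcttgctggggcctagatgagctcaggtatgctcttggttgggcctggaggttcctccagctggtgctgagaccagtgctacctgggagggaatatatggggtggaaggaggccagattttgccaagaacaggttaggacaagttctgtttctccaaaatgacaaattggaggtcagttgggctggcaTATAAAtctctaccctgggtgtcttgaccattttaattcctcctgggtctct
S100a4: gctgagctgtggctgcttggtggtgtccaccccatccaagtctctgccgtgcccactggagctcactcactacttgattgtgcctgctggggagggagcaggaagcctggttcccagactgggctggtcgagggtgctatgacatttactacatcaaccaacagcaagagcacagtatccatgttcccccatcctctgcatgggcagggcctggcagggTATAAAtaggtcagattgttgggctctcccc

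All values below are log2 values centred on the median of the 12 arrays for each probe set, so that 0 is a gene's own middle and not a level. Differences can be read, but levels cannot, and no gene can be called more or less abundant than another. Differences were tested in limma with all 12 arrays, and adjusted p-values (Benjamini-Hochberg) were taken over all 18193 genes with a threshold of 0.05. The test called the methods' below is the unpaired one that the methods give for biological effects in general. They name no test for the arrays in particular, so its use on these values was a choice made here. In these bulk samples fewer cells of a type and less RNA per cell cannot be told apart.

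S100a3, the hair cuticle member, rose with age at both site labels and had the widest range of the members. In P5 arrays it had 1.02, 0.27 and 0.19 at the tail label, with 1.08, 1.36 and 1.19 at the back label. In P1 arrays it had -1.06, -0.58 and -0.19 at the tail label, with -0.83, -0.55 and -0.64 at the back label. All 6 P5 arrays were above all 6 P1 arrays, and the P5 back arrays were the highest. Its range over the 12 arrays was 2.42, against 0.74 to 1.39 for the other 8 members.

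In P5 back against P1 back S100a3 was higher by 1.89 on the log2 scale (SE 0.23, limma adjusted p = 0.000616), a 3.70-fold difference. By p-value it was gene 62 of 18193. The call held whichever of the 6 arrays was left out, with differences of 1.81 to 1.95. In P5 tail against P1 tail it was higher by 1.10 (SE 0.23, limma adjusted p = 0.0155), or 2.14-fold. This second call held in 5 of the 6 fits that left out 1 array. Without P1 tail replicate 4 the difference was 0.87 (adjusted p = 0.0684), without this array and P5 tail replicate 2 it was 0.61 (adjusted p = 0.0736), and with array weights it was 0.73 (adjusted p = 0.206). S100a3 was the only member with a difference of at least 2-fold between group means in any comparison, where 0.978% of all genes were higher by that much in back and 1.24% in tail.

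**Figure D1:**
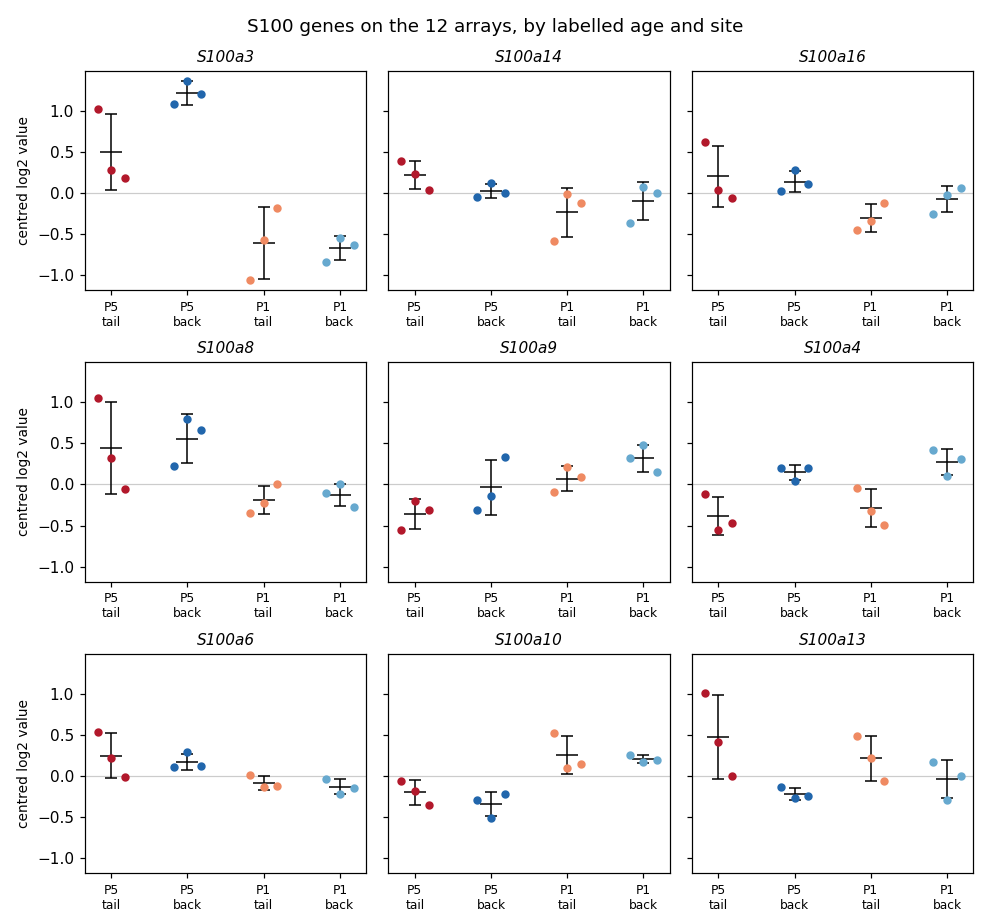
Centred log2 values (vertical axis) of the 9 S100 genes measured by probe sets of a single symbol, in P5 tail, P5 back, P1 tail and P1 back arrays as labelled. Points are arrays, and the black bars are the mean and SD of 3 arrays. All 6 P5 points of S100a3 lie above its 6 P1 points, while the other members span no more than 1.39.

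Between sites at P5, S100a3 averaged 0.49 ± 0.46 in tail and 1.21 ± 0.14 in back (SD, n = 3 each). The difference of -0.72 (SE 0.23) did not pass the test (limma adjusted p = 0.0893), although the 3 tail arrays were below the 3 back arrays. P5 tail replicate 2 was the highest of the tail arrays, and without it the difference was -0.98 (adjusted p = 0.0138). At P1 the means were -0.61 ± 0.44 in tail and -0.67 ± 0.15 in back (SD, n = 3 each), and the arrays overlapped. The interaction of site and age, which asks whether the gain with age was larger at one site, was -0.79 (SE 0.33, limma adjusted p = 0.287). No member passed this test, in which 2.87% of all genes did, and S100a3 alone had an unadjusted p under 0.05, as did 14.4% of all genes. Without the arrays P5 tail replicate 2 and P1 tail replicate 4 it was -1.28 (adjusted p = 0.00907).

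The hair shaft and cuticle list moved with S100a3. In P5 back against P1 back 14 of 14 measured genes were higher (median 2.33), where 2.22% of all genes were called higher. They include the hair keratins Krt31 (3.08), Krt33a (3.04) and the cuticle keratin Krt82 (2.97). In P5 tail against P1 tail 6 of 14 were higher (median 0.95) and none lower, beside 3.34% of all genes higher. At P5 9 of 14 were lower in tail than in back (median -1.14), beside 2.61% of all genes. The mean of the list by array lay between 0.05 and 1.13 in P5 tail and between 1.35 and 1.94 in P5 back, against -0.75 to -0.19 in P1 tail and -0.60 to -0.25 in P1 back. P5 tail replicate 2 was the highest of the tail arrays in this list, as it was for S100a3. The part of hair follicle content in the S100a3 differences was not tested.

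Padi3, which encodes the mouse form of the enzyme that citrullinates S100A3 in human hair cuticle, was also higher in P5 back than in P1 back, by 1.59 (SE 0.28, limma adjusted p = 0.00621). Its values were 0.37, 0.97 and 0.68 in P5 back, against -0.92, -0.84 and -0.99 in P1 back. In tail its values were 1.42, 0.59 and 0.01 at P5, against -0.64, -0.24 and -0.01 at P1. The tail difference was 0.97 and did not pass the test (limma adjusted p = 0.0700).

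The 3 genes whose values lay nearest to S100a3 over the 12 arrays, by root mean square difference, were Psors1c2 (0.18), Hephl1 (0.18) and Ly6g6g (0.21). Psors1c2 was higher by 1.73 in P5 back than in P1 back, Hephl1 by 1.97 and Ly6g6g by 1.73, and all 3 passed the test (limma adjusted p of 0.000561 to 0.00219). In tail the same genes were higher at P5 by 1.08, 1.08 and 1.22, and these differences passed as well (limma adjusted p of 0.0146 to 0.0314). They were picked for their likeness, so their pattern is a description.

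**Figure D2:**
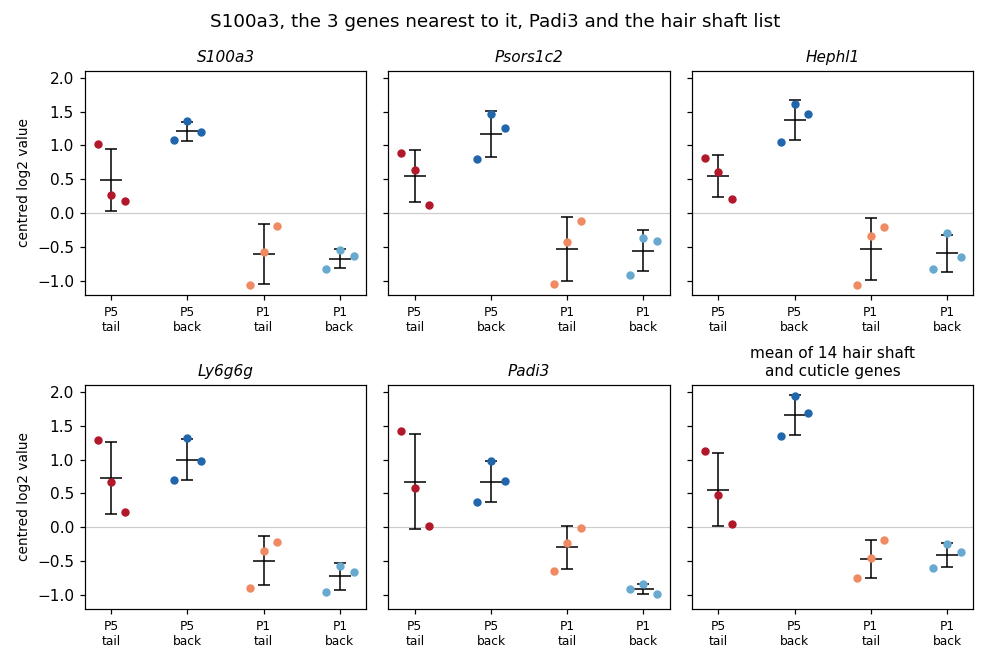
Centred log2 values (vertical axis) of S100a3, the 3 genes nearest to it over the 12 arrays, Padi3 and the mean of 14 hair shaft and cuticle genes, by labelled group. Points are arrays, and the black bars are the mean and SD of 3 arrays. The P5 back points of the hair list lie between 1.35 and 1.94, above all others, and in S100a3 and the hair list P5 tail replicate 2 (the leftmost tail point) is the highest of its group.

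Members of the surface epithelium, S100a14 and S100a16, had small differences with age, none of which passed the test. S100a14 was 0.38, 0.23 and 0.04 in P5 tail, against -0.58, -0.01 and -0.12 in P1 tail. The 3 P5 tail arrays were above the 3 P1 tail arrays, with a difference of 0.46 (limma adjusted p = 0.131) that was 0.28 without P1 tail replicate 4. In back S100a14 overlapped between ages, with a difference of 0.12 (limma adjusted p = 0.893).

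S100a16 was 0.62, 0.04 and -0.06 in P5 tail, against -0.45, -0.35 and -0.12 in P1 tail, a difference of 0.51 (limma adjusted p = 0.106). The tail arrays of the 2 ages did not overlap, and the value of P5 tail replicate 2 was the highest of all 12. Without that array the difference was 0.30, and without P5 tail replicate 4 it was 0.64 (adjusted p = 0.0464). Its 2 probe sets gave similar differences, 0.55 and 0.47 in tail and 0.24 and 0.18 in back. In back S100a16 overlapped between ages.

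In back 5 of 12 suprabasal keratinocyte genes were lower in P5 than in P1 (median -1.05) and none was higher. Of all genes 4.25% were called in back in either direction. The back differences of S100a14 (0.12) and S100a16 (0.21) did not pass the test. That of S100a14 was -0.01 without P1 back replicate 1. Basal keratinocyte genes were also lower there for 4 of 10 and higher for none, with Col17a1 at -1.20, Krt14 at -0.88 and Krt5 at -0.68. In tail the basal list went the other way, with 4 of 10 genes higher in P5 than in P1 (median 0.63). Among them were Col17a1 (1.33) and Krt14 (0.87), beside 3.34% of all genes called higher. No suprabasal gene passed limma's test or the methods' t-test in tail, and 5 of 12 had an unadjusted p under 0.05, beside 20.7% of all genes. The suprabasal differences were above 0 for 11 of 12 genes, with a median of 0.63. The part of epidermal cells in the member values was not tested.

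S100a8 and S100a9, which form calprotectin, differed between ages in opposite directions, and neither passed the test. S100a8 was 1.05, 0.32 and -0.06 in P5 tail, with 0.22, 0.79 and 0.66 in P5 back. It was -0.34, -0.23 and 0.00 in P1 tail and -0.11, -0.00 and -0.27 in P1 back. The back arrays of the ages did not overlap, with a difference of 0.68 (SE 0.23, limma adjusted p = 0.162). The tail arrays overlapped, with a difference of 0.63 (SE 0.23, limma adjusted p = 0.147) that was 0.32 without P5 tail replicate 2 and 0.87 (adjusted p = 0.0322) without P5 tail replicate 4.

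S100a9 was -0.56, -0.21 and -0.31 in P5 tail, with -0.31, -0.14 and 0.33 in P5 back. It was -0.09, 0.21 and 0.09 in P1 tail and 0.32, 0.48 and 0.15 in P1 back. In tail the P5 arrays were below the P1 arrays, by 0.43 on average (difference -0.43, SE 0.16, limma adjusted p = 0.159). In back they overlapped, with a difference of -0.35 (SE 0.16, limma adjusted p = 0.374) that was -0.54 without P5 back replicate 3 and -0.22 without P5 back replicate 1. Between sites the S100a9 arrays overlapped, with tail minus back at -0.32 at P5 (limma adjusted p = 0.298) and -0.25 at P1 (limma adjusted p = 0.552). Within each array, the centred value of S100a8 less that of S100a9 was 0.26 to 1.61 in P5 tail and 0.32 to 0.92 in P5 back. It was -0.43 to -0.09 in P1 tail and -0.48 to -0.42 in P1 back. All 6 P5 arrays were above all 6 P1 arrays in this measure, which was formed after the values were seen and was not tested.

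Neutrophil markers gave no called gene in any comparison. None of 13 measured genes passed limma's test or the methods' t-test between ages or between sites. At an unadjusted p under 0.05 there were 0 in both comparisons of ages, 2 between sites at P5 and 3 at P1. Between sites 20.3% of all genes were under that value at P5 and 14.5% at P1. In tail minus back 12 of 13 differences were below 0 at each age (medians -0.20 at P5 and -0.12 at P1). The median difference was 0.01 in both comparisons of ages. The mean of the list was -0.26 to 0.11 in P5 tail and 0.05 to 0.11 in P5 back, against -0.19 to -0.05 in P1 tail and 0.06 to 0.08 in P1 back. Of 14 macrophage and monocyte genes, 3 were lower in P5 tail than in P1 tail and none was higher, beside 1.96% of all genes lower. The 3 were the scavenger receptors Mrc1 (-1.36) and Cd163 (-1.21) and the growth factor receptor Csf1r (-0.68). No gene of that list passed limma's test or the methods' t-test in P5 back against P1 back. There 1 gene of the list had an unadjusted p under 0.05, beside 13.4% of all genes. The part of myeloid cells in the S100a8 and S100a9 values was not tested.

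S100a4, a member of fibroblasts and leukocytes, was lower in arrays labelled tail at both ages by about the same amount. At P5 its values were -0.12, -0.56 and -0.47 in tail, against 0.20, 0.04 and 0.20 in back. At P1 they were -0.04, -0.32 and -0.50 in tail, against 0.42, 0.10 and 0.30 in back. At each age the 3 tail arrays were below the 3 back arrays, as were 9.58% of all genes at P5 and 17.6% at P1.

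The S100a4 difference at P5 was -0.53 (SE 0.15, limma adjusted p = 0.0467), which passed the test, and at P1 it was -0.56 (SE 0.15, limma adjusted p = 0.0524), which missed it. S100a4 was the only 1 of 9 members called between sites at P5, where 6.91% of all genes were called in either direction. The P5 call was lost on leaving out any 1 of 5 arrays of the 6 compared (adjusted p of 0.0762 to 0.145) and held without P5 tail replicate 2 (-0.66, adjusted p = 0.0148). At P1 no member was called by limma, where 3.97% of all genes were, or by the methods' t-test, and S100a4 alone had an unadjusted p under 0.05, as did 14.5% of all genes. It was also the only member whose P1 arrays did not overlap between sites, as was so for 30.2% of all genes in either direction. Without P1 tail replicate 4 the P1 difference was -0.68 (adjusted p = 0.0301). S100a4 showed no difference of ages that passed the test, with -0.10 in tail and -0.13 in back.

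Fibroblast markers had no common direction beside S100a4. At P5 Dpt (0.69) and Lum (0.54) were higher in tail and the collagen gene Col1a2 (-0.46) was lower, and the median of the 10 genes was 0.01. At P1 2 of 10 were higher in tail and none lower, beside 3.97% of all genes called in either direction. Of the macrophage and monocyte list, 2 of 14 genes were lower in tail at P5, Mrc1 (-0.88) and Cd163 (-0.79), beside 2.61% of all genes. At P1 Cd163 was higher (0.66). Of 13 neutrophil genes, 12 were below 0 in tail minus back at each age, and none passed the test. The part of these cells in the S100a4 difference was not tested.

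**Figure D3:**
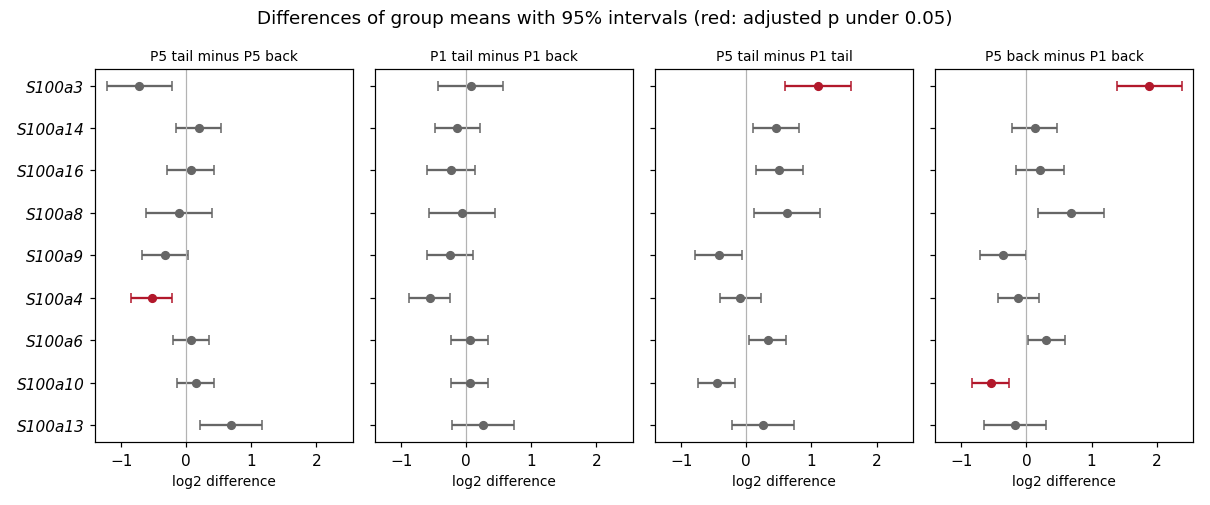
Log2 differences of group means with 95% confidence intervals (horizontal axis) for the 9 S100 genes in the 4 comparisons, with P5 tail minus P5 back at the left and P5 back minus P1 back at the right. Red marks an adjusted p under 0.05, which holds for S100a4 between sites at P5 (-0.53), S100a3 with age in tail (1.10) and in back (1.89), and S100a10 with age in back (-0.55).

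S100a10, the light chain that pairs with Anxa2 in a complex at the plasma membrane, fell with age in back. Averaged over its 3 probe sets it was -0.30, -0.51 and -0.23 in P5 back, against 0.25, 0.17 and 0.19 in P1 back, with no overlap. The difference was -0.55 (SE 0.13, limma adjusted p = 0.0323), and it passed the test. It no longer passed when any 1 of the 6 arrays was left out (adjusted p of 0.0559 to 0.168). In tail it was -0.06, -0.18 and -0.36 at P5, against 0.52, 0.10 and 0.15 at P1, again with no overlap, and the difference of -0.46 (SE 0.13) missed the threshold (limma adjusted p = 0.0643).

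The probe sets of S100a10 differed in size. Probe set 1439348_at had -0.88 in back and -1.0 in tail. The tail difference passed the test over 45037 probe sets (limma adjusted p = 0.0279), as did 3.12% of all probe sets. Its back difference did not pass (limma adjusted p = 0.064), so no single probe set of S100a10 passed in back. Probe set 1416762_at had -0.56 in back and -0.21 in tail. Probe set 1456642_x_at, whose suffix marks sequence shared with other transcripts, had -0.21 in back and -0.16 in tail, and none of these 4 values passed. Without the probe sets of shared sequence the gene's difference was -0.72 in back (adjusted p = 0.0200) and -0.61 in tail (adjusted p = 0.0436). Anxa2 gave -0.34 in back (limma adjusted p = 0.160) and 0.20 in tail (limma adjusted p = 0.367).

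**Figure D4:**
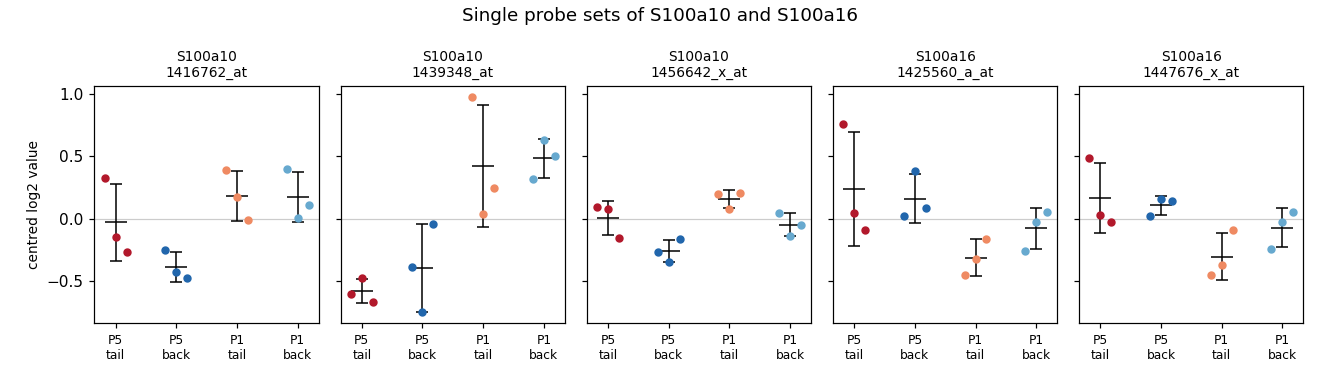
Centred log2 values (vertical axis) of the 3 probe sets of S100a10 and the 2 of S100a16, by labelled group. Points are arrays, and the black bars are the mean and SD of 3 arrays. Among the S100a10 probe sets, 1439348_at has the widest gap between P5 and P1 (-1.0 in tail and -0.88 in back), and the 2 probe sets of S100a16 look alike.

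Over the comparisons of ages, 2 of 9 members were called in back, S100a3 higher and S100a10 lower, where 4.25% of all genes were called. In tail S100a3 alone was called, where 5.3% of all genes were. The 3 arrays of each age did not overlap for 4 members in back, where 28% of all genes did not, and for 5 members in tail, where 19.4% did not. In tail 7 of 9 members had an unadjusted p under 0.05, beside 20.7% of all genes. Of these 7, S100a3, S100a6, S100a8, S100a14 and S100a16 were on the higher side and S100a9 and S100a10 on the lower. The members' median difference was 0.33 in tail and 0.12 in back, and that of all genes was 0.04 in tail and 0.01 in back. These figures leaned on single arrays. Without P5 tail replicate 2 the tail median of the members was 0.18 and 3 of 9 had an unadjusted p under 0.05, beside 18.3% of all genes. Without P1 back replicate 1 the back median was -0.01.

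S100a6, a widespread member that binds annexins, was 0.53, 0.21 and -0.01 in P5 tail, with 0.11, 0.29 and 0.12 in P5 back. It was 0.01, -0.14 and -0.12 in P1 tail and -0.03, -0.21 and -0.15 in P1 back. The back arrays of the ages did not overlap and the tail arrays did, and the differences were 0.30 in back (limma adjusted p = 0.317) and 0.33 in tail (limma adjusted p = 0.175). The tail difference was 0.18 without P5 tail replicate 2 and 0.45 (adjusted p = 0.0423) without P5 tail replicate 4. Between sites its arrays overlapped at both ages.

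S100a13, which takes part in the release of Fgf1 without a signal peptide, was 1.01, 0.41 and -0.00 in P5 tail, against -0.13, -0.27 and -0.25 in P5 back. The P5 arrays did not overlap, as for 20.6% of all genes, but the difference of 0.69 (SE 0.22) did not pass the test (limma adjusted p = 0.0847). Without P5 tail replicate 4 it was 0.93 (adjusted p = 0.0143), and without P5 tail replicate 2 it was 0.42. At P1 S100a13 overlapped between sites, with 0.49, 0.21 and -0.06 in tail and 0.16, -0.29 and 0.00 in back.

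Fgf1, the growth factor released with S100a13, went the other way between sites at P5. It was lower in tail, by 0.48 on average (difference -0.48, SE 0.11, limma adjusted p = 0.0147). It was higher in P5 back than in P1 back, by 0.51 (limma adjusted p = 0.0144), and its interaction of site and age was -0.66 (limma adjusted p = 0.0328). Of the 13 measured annexins and binding partners, Fgf1 and Padi3 were the only genes called in any comparison. The 5 comparisons each called 2.87% to 6.91% of all genes, and no share over the 5 together was computed.

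Among the receptors of released S100 proteins, 3 of 6 were lower in P5 tail than in P1 tail and none was higher. Of all genes 1.96% were lower in that comparison. The receptors were the scavenger receptor Cd36 (-0.66), the pattern receptor Tlr4 (-0.44) and the inhibitory myeloid receptor Cd33 (-1.09). Tlr4 was also lower in tail than in back at P5 (-0.60). Cd36, which fat cells express too, was higher in P5 back than in P1 back (0.75) and higher in tail than in back at P1 (1.61). Fat cell genes were lower in P5 tail than in P1 tail for 6 of 8 (median -1.32). In P5 back they were higher than in P1 back for 5 of 8 (median 0.81), beside 2.22% of all genes. Their part, and that of the macrophage genes given above, in the receptor differences was not tested.

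Of 4 further S100 family genes with values, 2 were called in some of the 5 comparisons. Each comparison by itself called 2.87% to 6.91% of all genes, and the share called in any of them was not computed. S100b, a gene of glia, melanocytes, fat cells and cartilage, was lower in tail than in back at P1 by 0.58 on average (difference -0.58, limma adjusted p = 0.0227), and higher in P5 tail than in P1 tail by 0.58 (limma adjusted p = 0.0221). S100a1, known from striated muscle, was higher in P5 back than in P1 back by 0.81 (limma adjusted p = 0.0494). S100a5 and S100g were called in none.

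The fused-type genes, which join an S100 domain to long repeats and serve in cornified cells, had differences of up to -4.04. In P5 back against P1 back, Tchhl1 (2.21) and trichohyalin of the inner root sheath, Tchh (1.46), were higher. Hornerin, Hrnr (-4.04), and filaggrin, Flg (-3.61), of the granular layer were lower in the same comparison. Of all genes 4.25% were called there in either direction. Flg was higher in tail than in back at P5 by 3.93 (limma adjusted p = 0.0136). At P1 Tchhl1 (1.18) and Tchh (1.12) were higher in tail than in back, where 3.97% of all genes were called in either direction. None of the 5 measured genes passed limma's test or the methods' t-test in P5 tail against P1 tail. Of the 5, 1 had an unadjusted p under 0.05 there, beside 20.7% of all genes.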

How the data were processed

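The 12 Affymetrix MG430.2A arrays of 1 colour were normalised by the authors with RMA in GeneSpring, and the deposited values are on the log2 scale of RMA (the base is not stated with the values). They also prove to be centred, with the median of each of 45101 probe sets over the 12 arrays at 0, a step that the methods do not describe. The methods' filter on weakly expressed genes could not be repeated, as levels are absent. After 64 control probe sets were left out, 45037 remained, of which 34945 had 1 gene symbol, 932 several and 9160 none in the platform annotation. By gene identifier 34741 matched RefSeq (GRCm38.p6). Probe sets of 1 symbol were averaged into 18193 genes and fitted in limma 3.58.1 (R 4.3.3) with lmFit and eBayes, 4 groups together, tests two-sided, for 5 comparisons. The fit was tested on simulated data.

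Named are all members, up to 3 called genes of each list per direction and comparison, and the 3 genes nearest to a member with a range of at least 2. The members and lists were chosen with earlier results of these data known. The planned rule for promoters picked none. P-values measure the spread between these arrays, whose number limits the precision. Alternatives were another centring, robust variances, array weights, only the groups compared, the methods' t-test, probe sets of shared sequence left out, a replicate block and each array left out. Probe sets of shared sequence were kept for genes with no other, so the values of S100a6, S100a8 and S100a16 did not change in that alternative. Leaving out both P5 tail replicate 2 and P1 tail replicate 4 was added after seeing the data.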

Additional observations from a re-analysis of the deposited data

How the results depend on the processing

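No member's called difference changed direction in any alternative. The 1.89 of S100a3 in back with age was called in every alternative except the methods' t-test. The number of called members moved as follows. Between sites at P5 it was 1 (S100a4), and 0 with each array centred on its median, with array weights, with only the arrays compared, with the methods' t-test and without probe sets of shared sequence. It was 2 without both P5 tail replicate 2 and P1 tail replicate 4, and 0 to 2 with 1 array left out. Between sites at P1 it was 0, and 1 with array weights or without those 2 arrays, and 0 to 1 with 1 array left out. With age in back it was 2, and 4 with array weights. It was 3 with only the arrays compared and also without those 2 arrays, 0 with the methods' t-test and 1 whichever array was left out. With age in tail it was 1, and 0 with array weights, with only the arrays compared, with the methods' t-test and without those 2 arrays, 2 without probe sets of shared sequence, and 0 to 4 with 1 array left out. The 4 arose without P5 tail replicate 4, with S100a6, S100a8 and S100a16 beside S100a3, where 7.82% of all genes were called. For the interaction it was 0, and 1 (S100a3) without those 2 arrays, with 1 member at an unadjusted p under 0.05. The causes were not tested.

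Whether same-numbered arrays come from the same mouse is not stated, and the values left this unresolved. Correlations of their deviations from the group means were 0.26 (number 5) and -0.01 (number 6) at P1. At P5 they were 0.17 (number 2) and -0.02 (number 3). The consensus correlation within blocks was 0.14. Tail replicate 4 and back replicate 1 had no partner at either age. With the number as a random replicate block 1 member was called between sites at P1 and 1 at P5, and as a fixed replicate block 0 at P5. The fixed block left 2 residual degrees of freedom, against 8 in the main fit, so its 0 does not bear on the pairing.

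Genes called over the whole table were 1257 between sites at P5, against 24 to 1539 in settings that keep every array and without the 2 arrays, and 737 to 2136 with 1 array left out (highest without P5 tail replicate 4). Between sites at P1 they were 722, against 6 to 3650 and 385 to 789. With age in back they were 773, against 10 to 2136 and 379 to 529. With age in tail they were 964, against 0 to 966 and 472 to 1685 (highest without P5 tail replicate 3). For the interaction they were 522, against 231 to 767 and 239 to 731. Array weights called 11.7% of all genes with age in back and 20.1% between sites at P1, beside 4 and 1 of the 9 members. With only the arrays compared 8.39% of all genes were called with age in back, beside 3 members. Without the 2 arrays 7.04% of all genes were called with age in back, beside 3 members. Between sites they were 8.15% at P5, beside 2 members, and 4.8% at P1, beside 1 member. For the interaction they were 3.07%, beside 1 member. Without probe sets of shared sequence 4.79% of all genes were called with age in tail, beside 2 members. Over settings with every array, the lowest counts came from the methods' t-test, except for the interaction, which it did not cover. The centred values give no signal over background, so dim probe sets could not be told from bright ones.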

Other observations

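P5 tail replicate 2 held the highest value of the 12 arrays for 5 of the 9 members, S100a6, S100a8, S100a13, S100a14 and S100a16, and the lowest for S100a9. Over all genes it held the highest value for 26.7% and the lowest for 18.2%. P1 tail replicate 4 held the lowest value for 4 members, S100a3, S100a8, S100a14 and S100a16, and the highest for S100a10, beside 12.6% and 10.3% of all genes. These values were not tested.

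Pigment genes and the myelin gene Mbp differed between ages in back. There S100b, a gene of melanocytes and glia, had a difference of 0.34 that did not pass the test (limma adjusted p = 0.237). Of 8 measured genes of Schwann cells and melanocytes, 4 were higher in P5 back than in P1 back and none lower. Among them were Mbp (1.98) and the pigment genes Mlana (1.35) and Tyrp1 (1.31), beside 2.22% of all genes higher. Mbp was the only glial gene called. Sox10 (0.24, limma adjusted p = 0.430) and Pmp22 (0.64, limma adjusted p = 0.0684) did not pass. At P1 5 of 8 were higher in tail than in back, among them Tyr (1.66), Tyrp1 (1.62) and Dct (1.28). All 5 were pigment genes, and no glial gene passed the test. In that comparison S100b was lower (-0.58), and 3.97% of all genes were called in either direction. Cartilage genes, of another tissue that expresses S100b, were lower in tail at P1 for 3 of 12 (median -1.24). The 3 were Hapln1 (-2.10), Col9a1 (-1.96) and Matn1 (-0.96). The mean of the cartilage list was -0.23 to -0.18 in P1 tail, against 2.05, -0.01 and 1.72 in P1 back replicates 1, 5 and 6. Thus 1 of the 3 back arrays stood apart from the others. Fat cells express S100b too, and their genes were higher in tail at P1 for 8 of 8 (median 2.68). The part of these cell types in the S100b differences was not tested.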
